A study of Mus musculus with 6 samples.

Results

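Osteopontin and 5 of its receptor genes were followed in CD4+ T cells from mice of 2 ages, old and young. The set holds the ligand Spp1, the receptor Cd44 and the 4 integrin chains Itgav, Itga4, Itgb1 and Itgb3. These are 6 of 19977 genes in the table, and all 6 were among the 10509 genes tested, which had a mean of at least 1 FPKM (fragments scaled by transcript length and sequencing depth) over the 6 libraries. They were chosen by name with the old-against-young values of this table already known, so that contrast describes them here and tests nothing about them.

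The 3 old libraries came from mice aged 11 months and the 3 young libraries from mice aged 6 to 8 weeks, all wild type and of strain C57BL/6. In both groups the CD4+ T cells were sorted by flow cytometry out of spleen and lymph nodes. All libraries are of cells cultured for 6 hours with antibodies against CD3, part of the T-cell receptor complex, and against the costimulatory receptor CD28, so no library shows the resting state. The labels do not say whether each library came from a separate animal, and the spread between libraries may be technical in part.

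Osteopontin is a secreted phosphoprotein of bone matrix that macrophages and activated T cells also make, and in T cells it acts as a cytokine that favours inflammatory responses. It is bound by integrins, which are receptors made of an alpha and a beta chain, through an arginine-glycine-aspartate motif (RGD) and an adjacent site that thrombin cleavage exposes. Itgav pairs with Itgb1 or Itgb3 to bind the RGD motif, whereas Itga4 paired with Itgb1 binds through other sites, including the exposed one. Cd44 is the hyaluronan receptor that marks antigen-experienced T cells, and it has also been described as an osteopontin receptor.

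The stretch of the Spp1 coding sequence that carries both integrin sites shows what the receptor chains bind. It was read from the GENCODE M21 transcript of the main Spp1 form on GRCm38 (chr5:104439457-104439525, plus strand). Capitals mark the RGD codons, which begin at codon 144 of 294, and directly after them the codons of the site exposed by thrombin.
Spp1 integrin sites: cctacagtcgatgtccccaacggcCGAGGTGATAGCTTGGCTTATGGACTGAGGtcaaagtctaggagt

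Cd44 is spliced into a short standard form and longer forms with variable exons, and the exon junction tells them apart. The next 2 sequences come from GENCODE M21 transcripts on chromosome 2 of GRCm38, minus strand. Lower case is the end of exon 5, shared by both forms, and capitals mark the exon joined to it. In the 9-exon form, exon 5 is joined past 10 exons and 1245 bases of the 19-exon form, which lie between 102831330 and 102848782.
Cd44 9-exon form: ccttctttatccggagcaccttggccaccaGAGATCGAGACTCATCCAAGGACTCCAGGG
Cd44 19-exon form: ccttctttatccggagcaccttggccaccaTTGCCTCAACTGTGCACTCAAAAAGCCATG

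The libraries held between 16932551 and 18708205 expected counts each. Young replicate 1 stood apart, at a correlation of log2 CPM (counts scaled to a common library total) across genes of 0.914 and 0.927 with the other young libraries, which reached 0.982 with each other, so values are also given without it. T-cell markers fitted the label, with 6 of 7 in the table and a summed level of 1368 to 1771 FPKM in old libraries and 1356 to 1553 FPKM in young libraries. Cd3g, a chain of the T-cell receptor complex, averaged 348 ± 78.9 FPKM in old and 329 ± 11.9 FPKM in young libraries (SD over 3 libraries).

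Spp1 (gene 20750, chromosome 5, 104435111 to 104441053 in GRCm38), the osteopontin gene, stood at 12.9, 15.0 and 3.56 FPKM in old replicates 1, 2 and 3, against 0.96, 0.76 and 0.79 FPKM in young replicates 1, 2 and 3. Every old library lay above every young one, and old replicate 3 held far less than the other 2 old libraries. These levels rested on 332, 390 and 94 expected counts in the old libraries and on 23, 20 and 20 in the young ones, so counting error is a large part of a young value. In CPM scaled by TMM, edgeR's library scaling, Spp1 averaged 14.7 ± 8.43 in old and 1.18 ± 0.129 in young libraries (SD over 3 libraries), which is 12.4-fold higher in old libraries. The fitted log2 difference was 3.63 ± 0.55 (SE, edgeR, n = 3 per group), rank 14 of the genes tested, counted from the highest. Spp1 reached the mean of 1 FPKM needed for testing only through the old libraries, as its young mean was 0.837 FPKM. Its rank and its call below are therefore partly set by that filter, and nothing is read from them. Without old replicate 3, the library of lowest Spp1 in its group, the log2 difference was 4.04. In bulk RNA, more cells that make a transcript and more transcript per cell cannot be told apart, for Spp1 or for any gene below.

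Macrophages and bone cells are rich sources of osteopontin elsewhere in the body. Of 11 macrophage and monocyte markers, 9 lay under 1 FPKM in every library, among them Adgre1, Csf1r, Mrc1 and the 3 chains of complement C1q. Their summed level was 9.64 to 13.2 FPKM in old and 10.8 to 16.5 FPKM in young libraries, and these ranges overlapped. Cd68, a lysosomal protein and the highest of that list in the mean of all 6 libraries, stood at 6.48 ± 1.24 FPKM in old and 4.40 ± 2.20 FPKM in young libraries (SD over 3 libraries). Lyz2, lysozyme and the other tested gene of the list, went the other way, at 3.85 ± 1.03 FPKM in old and 6.98 ± 2.02 FPKM in young libraries, and edgeR called neither. Of 5 bone and stromal markers, 4 lay under 1 FPKM in every library and osteocalcin, Bglap, was listed at 0 in all 6. Alpl, alkaline phosphatase, was the highest of these, at 3.32 ± 1.87 FPKM in old and 6.35 ± 3.48 FPKM in young libraries (SD over 3 libraries).

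**Figure D1:**
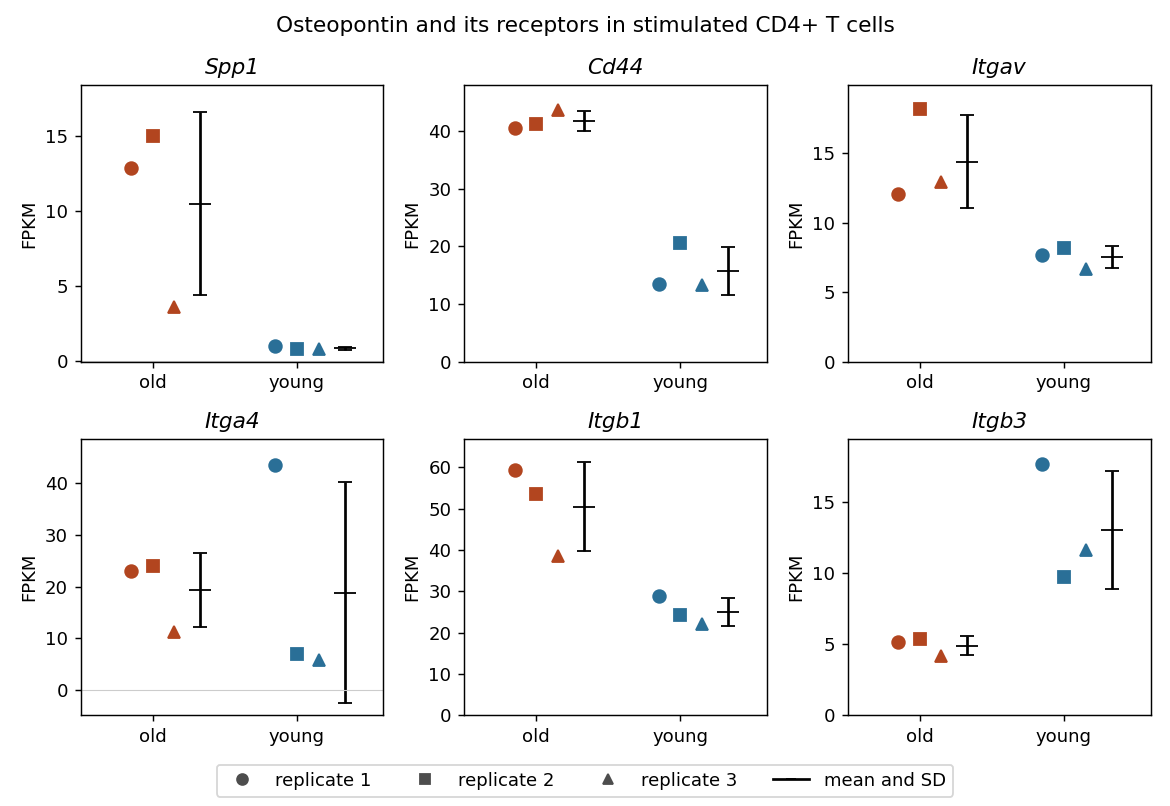
FPKM of each of the 6 genes in the 3 old (left) and 3 young (right) libraries; marker shapes give the replicate number, and the bar beside each group is its mean and SD. Itga4 in young replicate 1, at 43.6 FPKM, lies far above the other 2 young libraries, and Itgb3 is the gene whose old libraries all lie below the young ones.

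Cd44 (gene 12505, chromosome 2, 102811141 to 102901669) stood at 40.5, 41.2 and 43.7 FPKM in old replicates 1, 2 and 3, against 13.5, 20.6 and 13.3 FPKM in young replicates 1, 2 and 3. The old libraries were close together and all lay above the young ones, where replicate 2 was the highest. In CPM, Cd44 averaged 186 ± 11.8 in old and 70.9 ± 18.3 in young libraries (SD over 3 libraries), with a log2 difference of 1.40 ± 0.21 (SE, edgeR, n = 3 per group). Unlike Spp1, Cd44 was highest of the old group in old replicate 3, where its level was 12.3 times that of Spp1 per length, against 3.14 and 2.74 times in old replicates 1 and 2.

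Almost all Cd44 signal in both groups was assigned to the 9-exon form shown above, which lacks the variable exons. This transcript (NM_001039151.1) alone of 11 listed reached a mean of 1 FPKM over the libraries. It held 94.6%, 96.1% and 95.6% of Cd44 FPKM in old replicates 1, 2 and 3, against 96.4%, 98.9% and 92.4% in young replicates 1, 2 and 3. The group ranges overlapped, and the difference of -0.45 percentage points was smaller than the SD of 2.37 between libraries. The other 10 transcripts together came to 2.18, 1.59 and 1.94 FPKM in old replicates 1, 2 and 3, against 0.49, 0.23 and 1.01 FPKM in young replicates 1, 2 and 3. Their sum was thus higher in every old library in level, but not in share. The 19-exon form (NM_009851.2) lay at 0.04 FPKM in old replicate 3 and was listed at 0 in the other 5 libraries. RSEM, the program named for these counts, divides reads that fit several transcripts by a model, so single minor forms are uncertain.

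**Figure D2:**
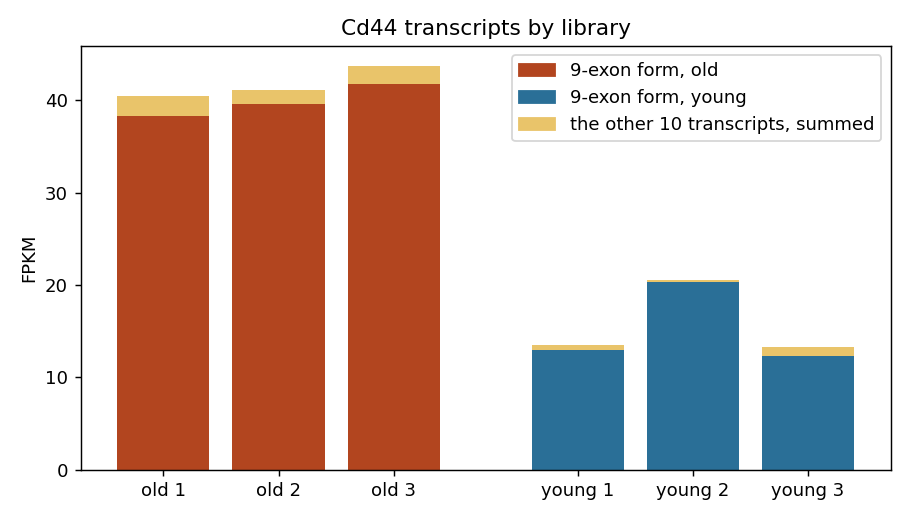
Cd44 FPKM in each library (old at the left), split into the 9-exon form and the sum of the other 10 transcripts. The 9-exon form makes up between 92.4% and 98.9% of each bar, in old and in young libraries.

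Spp1 also came mostly from 1 of its 5 transcripts. The 7-exon form NM_009263.3 held 94.6%, 86.2% and 100% of Spp1 FPKM in old replicates 1, 2 and 3, and 100% in each young library. The remainder in old replicates 1 and 2 belonged to 2 transcripts with the same coding length of 882 bases, and the other 2 transcripts were listed at 0 in all libraries. At 20 to 23 counts a young library could show few reads of a minor form.

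Among the alpha chains, Itgav (gene 16410, chromosome 2, 83722303 to 83806917), the alpha-v chain that binds the RGD motif, stood at 12.1, 18.2 and 12.9 FPKM in old replicates 1, 2 and 3, against 7.70, 8.18 and 6.65 FPKM in young replicates 1, 2 and 3. The groups did not overlap, and the log2 difference was 0.93 ± 0.20 (SE, edgeR, n = 3 per group). A predicted second transcript of Itgav, XM_006498807.3, held 9.79%, 7.43% and 12.8% of its FPKM in old replicates 1, 2 and 3, against 7.14%, 2.08% and 2.86% in young replicates 1, 2 and 3. Every old share was above every young one.

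Itga4 (gene 16401, chromosome 2, 79255426 to 79333114), the alpha-4 chain of the receptor for Vcam1 and fibronectin, stood at 23.0, 24.1 and 11.2 FPKM in old replicates 1, 2 and 3, against 43.6, 7.07 and 5.93 FPKM in young replicates 1, 2 and 3. The groups overlapped: young replicate 1 was the highest of all 6 libraries, while the other 2 young libraries were the lowest. The log2 difference was 0.05 ± 0.73 with all libraries and 1.54 ± 0.30 without young replicate 1 (SE, edgeR). Il7r, the interleukin-7 receptor chain of naive and memory cells, was picked after its values were seen and was also highest in that library, at 216 FPKM, against 12.6 and 8.17 FPKM in young replicates 2 and 3. Itga4 overlaps Cerkl, a ceramide kinase-like gene, in the gene table, between 79332491 and 79333114, near the end of Itga4. Cerkl stood at 17.1, 2.22 and 6.90 FPKM in old replicates 1, 2 and 3, against 20.2, 4.44 and 0.81 FPKM in young replicates 1, 2 and 3. Both genes were thus highest in young replicate 1, while old replicate 2 was the highest old library for Itga4 and the lowest old library for Cerkl. With no strand setting given, it is not known how well reads in the shared stretch were told apart between the 2 genes. The part of such reads in either level was not tested.

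Of the beta chains, Itgb1 (gene 16412, chromosome 8, 128685654 to 128733579), the partner of both alpha chains, stood at 59.3, 53.6 and 38.5 FPKM in old replicates 1, 2 and 3, against 28.8, 24.2 and 22.1 FPKM in young replicates 1, 2 and 3. The lowest old library lay above the highest young one, and the log2 difference was 1.0 ± 0.20 (SE, edgeR, n = 3 per group). Old replicate 3 was the lowest old library for Itgb1, as it was for Spp1, Itga4 and Itgb3.

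Itgb3 (gene 16416, chromosome 11, 104608000 to 104670476), the beta-3 chain of the classical osteopontin receptor and of the platelet fibrinogen receptor, stood at 5.13, 5.39 and 4.15 FPKM in old replicates 1, 2 and 3, against 17.7, 9.76 and 11.7 FPKM in young replicates 1, 2 and 3. Every old library lay below every young one, and Itgb3 was the only member of which that held. In CPM it averaged 28.5 ± 3.30 in old and 76.4 ± 22.3 in young libraries (SD over 3 libraries), with a log2 difference of -1.42 ± 0.24 (SE, edgeR, n = 3 per group), rank 99 from the lowest. Without young replicate 1, its highest library, the difference was -1.17 ± 0.15.

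Both Itgb3 transcripts reached the level for naming. The curated one, NM_016780.2, stood at 3.77, 4.55 and 3.15 FPKM in old replicates 1, 2 and 3, against 10.6, 4.90 and 10.5 FPKM in young replicates 1, 2 and 3. The predicted one, XM_006532312.2, stood at 1.36, 0.84 and 1.0 FPKM in old replicates 1, 2 and 3, against 7.05, 4.86 and 1.16 FPKM in young replicates 1, 2 and 3. The 2 transcripts thus took very different shares in the young libraries, with the curated form at 60.1%, 50.2% and 90.0% of the gene, while in the old libraries it held 73.5%, 84.4% and 75.9%. The old and young libraries did not overlap for the curated transcript and overlapped for the predicted one.

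Platelets carry much Itgb3 and could bring its RNA into a sort. The 6 platelet and megakaryocyte markers summed to 1.40 to 1.62 FPKM in old and 1.21 to 3.47 FPKM in young libraries. Of these, 4 lay under 1 FPKM in every library, among them the platelet chemokines Pf4 and Ppbp, and Treml1 was listed at 0. Gp1ba stood at 0.36, 0.62 and 0.35 FPKM in old replicates 1, 2 and 3, against 1.49, 0.19 and 0.36 FPKM in young replicates 1, 2 and 3. Itga2b, the platelet partner of Itgb3 and the highest of the list, stood at 0.740 ± 0.0721 FPKM in old and 1.18 ± 0.693 FPKM in young libraries (SD over 3 libraries), below Itgb3 in every library. Young replicate 1, the library of highest Itgb3, was also highest in Itga2b, at 1.98 FPKM, and in Gp1ba. The part of platelet RNA in the Itgb3 values was not tested.

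Within a library, the balance of beta chains was unlike in the 2 groups. Itgb1 exceeded Itgb3 by 11.6, 9.95 and 9.27 times in FPKM in old replicates 1, 2 and 3, against 1.63, 2.48 and 1.90 times in young replicates 1, 2 and 3. Itgav stood at 2.35, 3.37 and 3.11 times the FPKM of Itgb3 in old replicates 1, 2 and 3, against 0.436, 0.838 and 0.571 times in young replicates 1, 2 and 3. Itgav was thus above Itgb3 in all old libraries and below it in all young ones. These ratios compare RNA per length and say nothing of the receptors on the cell surface.

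**Figure D3:**
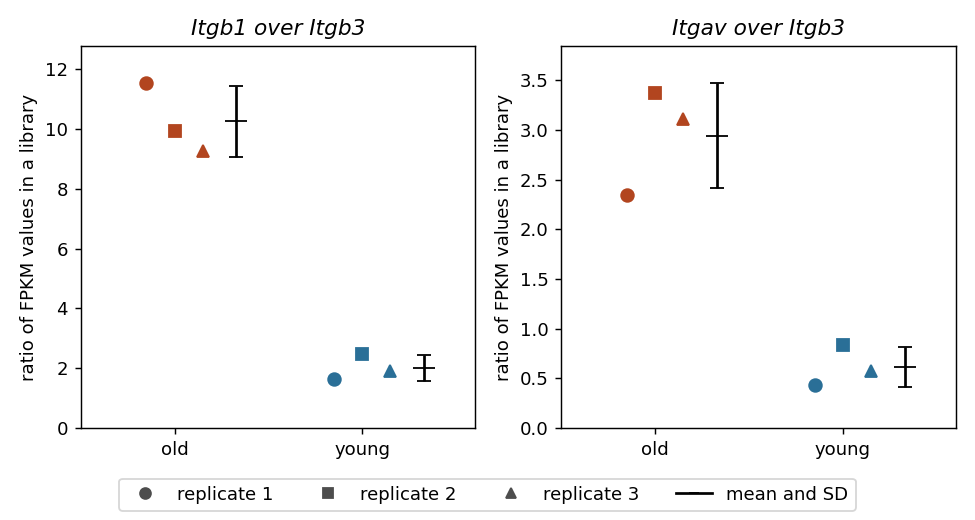
Ratios of FPKM values within a library, Itgb1 over Itgb3 and Itgav over Itgb3, for 3 old (left) and 3 young (right) libraries with the mean and SD of each group. The old ratios average 10.3 and 2.94, and the young ratios 2.002 and 0.615.

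Ordered by level per length, the old group ran from Itgb1 (50.5 ± 10.8 FPKM) and Cd44 (41.8 ± 1.70) through Itga4 (19.4 ± 7.15), Itgav (14.4 ± 3.32) and Spp1 (10.5 ± 6.10) to Itgb3 (4.89 ± 0.654). In the young group it ran from Itgb1 (25.0 ± 3.42 FPKM) through Itga4 (18.9 ± 21.4), Cd44 (15.8 ± 4.13), Itgb3 (13.0 ± 4.14) and Itgav (7.51 ± 0.782) to Spp1 (0.837 ± 0.108; SD, n = 3 throughout). Neighbours whose libraries did not overlap were Cd44 and Itga4 in old cells, and Itgb3 and Itgav as well as Itgav and Spp1 in young cells. All other neighbours in either order overlapped. Measured against the genes tested, Itgb3 exceeded 23.4% of them in mean old FPKM and 47.1% in mean young FPKM.

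With Benjamini-Hochberg adjustment of edgeR's quasi-likelihood p over all 10509 genes, 0.875% of genes passed the threshold of 0.05, with 0.742% of genes higher and 0.133% lower in old libraries. Of the 6 members, Spp1 and Cd44 were called higher and Itgb3 lower, the last at an adjusted p of 0.04999, directly at the threshold. The groups did not overlap for 5 of the 6, 4 of them higher and 1 lower in old libraries, against 16.4% of all genes tested, 9.9% higher and 6.52% lower, and the median log2 difference was 0.96, against -0.03 over all genes. Since the members were proposed on this contrast, nothing is read from these counts. The calls depended on single libraries: none of the 6 passed without old replicate 1, old replicate 2, young replicate 2 or young replicate 3, and Spp1 alone passed without old replicate 3. That held for calls in general: of all 10509 genes, 6, 0, 0 and 7 passed in the first of these settings, in that order, and 9 without old replicate 3. Without young replicate 1 all 6 passed, 5 higher and Itgb3 lower, beside 8.84% of all genes, 5.86% higher and 2.98% lower. DESeq2 called 5 of the 6, all but Itga4, beside 4.77% of all genes.

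**Figure D4:**
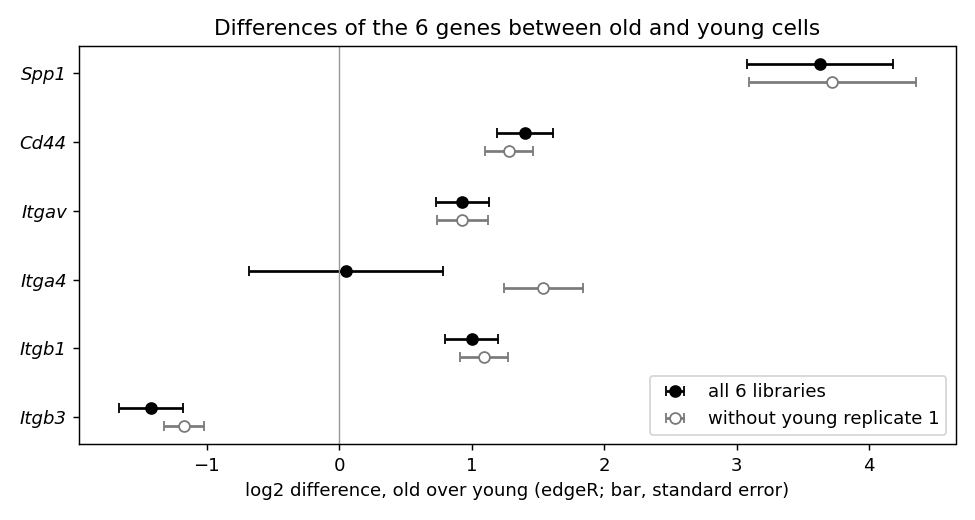
Fitted log2 difference of each gene, old over young, with its standard error, from all 6 libraries (filled) and without young replicate 1 (open). Spp1 has the highest value at 3.63, Itgb3 is the single negative one at -1.42, and Itga4 moves to 1.54 when that library is left out.

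To see the genes around osteopontin and its receptors, 11 lists with 115 genes were read from the same fit, of which 71 were tested. Of these, 1 rose, Tiam1, and 0 fell by edgeR (adjusted p under 0.05), beside 0.742% and 0.133% of all genes. An unadjusted p under 0.05 was found for 17 of the 71, beside 10.6% of all genes, and 12 were called by DESeq2, beside 4.77% of all genes. Without young replicate 1, edgeR called 11 of the 71 higher and 4 lower, beside 5.86% and 2.98% of all genes. The lists were chosen with earlier results of these data known. Nothing is therefore read from these counts, or from the counts and medians of the single lists below. Tiam1, an exchange factor of the GTPase Rac that binds the Cd44 tail, rose to 37.1, 34.7 and 27.5 FPKM in old replicates 1, 2 and 3, against 16.5, 17.2 and 13.2 FPKM in young replicates 1, 2 and 3. Its log2 difference was 1.04 ± 0.17 (adjusted p = 0.0466, edgeR, Benjamini-Hochberg), higher in 3 of 3 old libraries than in any young one. That call ended at a mean FPKM of at least 5 and also without old replicate 1, old replicate 2, old replicate 3, young replicate 2 or young replicate 3. Without any 1 of those libraries, no more than 9 of all genes were called.

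The remaining 8 tested genes of the 9 among cytoplasmic partners of Cd44 were not called, and the list median was 0.14. Moesin, Msn, which ties Cd44 to actin, averaged 208 ± 9.75 FPKM in old and 230 ± 104 FPKM in young libraries, and the kinase Lck 241 ± 18.1 and 231 ± 45.4 FPKM in old and young libraries (SD over 3 libraries). Among 13 genes of hyaluronan and other Cd44 ligands, 5 were tested and none was called by edgeR (1 by DESeq2, 2 at an unadjusted p under 0.05, median 0.06). Serglycin, Srgn, a granule proteoglycan that Cd44 binds, averaged 1755 ± 302 FPKM in old and 1146 ± 243 FPKM in young libraries (SD over 3 libraries). The hyaluronidase Hyal2 averaged 9.71 ± 1.05 FPKM in old and 9.29 ± 3.91 FPKM in young libraries. The hyaluronan synthases Has1, Has2 and Has3 lay under 0.5 FPKM in every library.

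Factors of Cd44 alternative splicing had a median of -0.02 over 11 tested genes, with none called by edgeR or DESeq2 and 1 at an unadjusted p under 0.05. The epithelial splicing regulators Esrp1 and Esrp2, which favour variable exons, lay at no more than 0.03 and 0.14 FPKM in any library. Hnrnpa1 averaged 690 ± 31.2 FPKM in old and 695 ± 285 FPKM in young libraries, and Ybx1 616 ± 18.4 FPKM in old and 671 ± 240 FPKM in young libraries (SD over 3 libraries). Of the surface markers read beside Cd44, none of 6 was called by edgeR, while DESeq2 called 4 and 4 reached an unadjusted p under 0.05 (median -0.18). Without young replicate 1 the median was 0.76, and edgeR called 3 of the 6 higher and 2 lower, beside 5.86% and 2.98% of all genes. Ccr7, which guides T cells into lymph nodes, was at 290 ± 19.3 FPKM in old and 599 ± 126 FPKM in young libraries, and the early activation marker Cd69 at 295 ± 116 and 181 ± 47.8 FPKM in old and young libraries (SD over 3 libraries).

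The other integrin chains of osteopontin receptors were nearly absent apart from 2. Itgb7, the second partner of Itga4, stood at 38.4 ± 16.0 FPKM in old and 76.8 ± 77.9 FPKM in young libraries, with young replicate 1 at 167 FPKM, and Itga5, the fibronectin receptor chain, at 1.82 ± 0.486 and 3.30 ± 0.320 FPKM in old and young libraries (SD over 3 libraries). Neither was called by edgeR, DESeq2 called 1, and 1 had an unadjusted p under 0.05. Itga9, Itgb5 and Itgb6 lay under 1 FPKM in every library and Itga8 was listed at 0.

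Of 9 further partner chains, 4 were tested, none was called by edgeR and 1 by DESeq2, with 2 at an unadjusted p under 0.05 (median 0.03, or 0.72 without young replicate 1). Itga6, a laminin receptor chain that pairs with Itgb1, averaged 11.0 ± 2.23 FPKM in old and 26.1 ± 22.1 FPKM in young libraries, with young replicate 1 at 51.7 FPKM and the other 2 at 13.4 and 13.3 FPKM, and Itga3 averaged 2.49 ± 0.493 and 1.90 ± 0.194 FPKM in old and young libraries (SD over 3 libraries). Itgb8, the partner of Itgav that activates latent transforming growth factor beta, was picked after its values were seen. It stood at 2.21, 5.46 and 1.76 FPKM in old replicates 1, 2 and 3, against 0.66, 0.33 and 0.30 FPKM in young replicates 1, 2 and 3. Its log2 difference was 2.86 ± 0.54 with all libraries (SE, edgeR), where it was not called, and 3.28 without young replicate 1. Itgb8 reached the mean of 1 FPKM needed for testing only through the old libraries, with a young mean of 0.430 FPKM. These values therefore describe it and test nothing.

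Other ligands of these integrins were mostly not expressed, with 7 of 11 under 1 FPKM in every library. Of 4 tested, none was called by edgeR and 2 by DESeq2, with 2 at an unadjusted p under 0.05 (median 0.12). Tgfb1, whose latent form holds an RGD motif, averaged 137 ± 15.5 FPKM in old and 116 ± 11.7 FPKM in young libraries, and Lrrc32, which displays latent Tgfb1 on regulatory T cells, 59.3 ± 13.2 and 19.9 ± 9.30 FPKM in old and young libraries (SD over 3 libraries). The integrin activation and adhesion complex had a median of 0.02 over 18 tested genes, with none called by edgeR and 1 by DESeq2, and 1 at an unadjusted p under 0.05. Rap1b, a GTPase that switches integrins on, averaged 175 ± 15.7 FPKM in old and 198 ± 7.83 FPKM in young libraries, and the adaptor Zyx 72.8 ± 5.63 and 66.9 ± 9.14 FPKM in old and young libraries (SD over 3 libraries).

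Proteases that cut osteopontin or Cd44 were represented by 3 tested genes of 10, none of them called by edgeR or DESeq2 or at an unadjusted p under 0.05 (median 0.19). Adam10, a sheddase of Cd44, averaged 38.0 ± 3.43 FPKM in old and 32.3 ± 4.61 FPKM in young libraries, and cathepsin D, Ctsd, 74.1 ± 13.9 and 86.2 ± 30.1 FPKM in old and young libraries (SD over 3 libraries). Thrombin, F2, lay under 1 FPKM in every library. Of the bone phosphoproteins related to osteopontin, Ibsp, Dmp1 and Dspp lay under 1 FPKM in every library. Ibsp is the nearest measured gene before Spp1, 123639 bases away, and was listed at 0 in all libraries. The nearest measured gene after it, Pkd2, 12929 bases away, lay between 0.10 and 0.39 FPKM in all 6.

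Transcription factors known to act on Spp1 had a median of 0.49 over 9 tested genes, 8 of them positive, against a median of -0.03 over all genes. None was called by edgeR and 1 by DESeq2, and 3 had an unadjusted p under 0.05, beside 4.77% and 10.6% of all genes for the last 2 counts. Without young replicate 1, edgeR called 3 of the 9 higher, beside 5.86% of all genes. Tbx21, the Th1 factor T-bet, stood at 71.0, 80.0 and 99.8 FPKM in old replicates 1, 2 and 3, against 8.88, 48.2 and 46.7 FPKM in young replicates 1, 2 and 3. Old replicate 3, which was lowest in Spp1 among old libraries, was the highest in Tbx21. Ets1 averaged 157 ± 23.9 FPKM in old and 198 ± 74.8 FPKM in young libraries (SD over 3 libraries). Runx2, a bone and lymphocyte factor, was picked after its values were seen and stood at 6.33, 6.59 and 5.62 FPKM in old replicates 1, 2 and 3, against 3.08, 1.83 and 1.23 FPKM in young replicates 1, 2 and 3. Its log2 difference was 1.59 ± 0.29, not called with all libraries (adjusted p = 0.0662) and called without young replicate 1 (adjusted p = 0.00274, edgeR, Benjamini-Hochberg). As Runx2 was picked on these values, they describe it and test nothing.

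**Figure D5:**
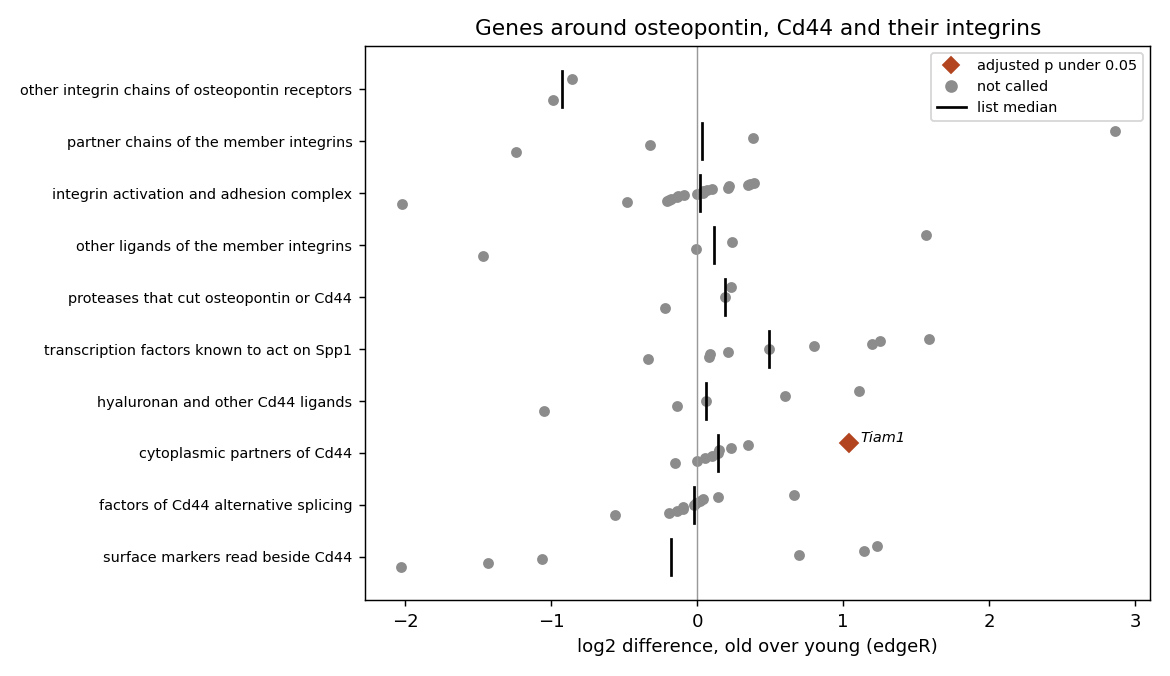
Log2 difference, old over young, of each tested gene in 10 lists around osteopontin, Cd44 and their integrins, with the list median as a line; the list of related bone phosphoproteins had no tested gene. Tiam1, at 1.04, is the single gene that edgeR called.

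Letters for these factor families were searched on both strands in the 250 bases before the Spp1 start site, taken from RefSeq on GRCm38.p6 (chr5:104434861-104435110, plus strand). The sequence is shown as the window of the ligand gene that was searched. Capitals mark 1 match to the Runx letters TGTGGT, in reverse, 128 bases before the start, and 2 to the Ets letters AGGAAG, the first of them in reverse, 148 and 112 bases before it.
Spp1 promoter: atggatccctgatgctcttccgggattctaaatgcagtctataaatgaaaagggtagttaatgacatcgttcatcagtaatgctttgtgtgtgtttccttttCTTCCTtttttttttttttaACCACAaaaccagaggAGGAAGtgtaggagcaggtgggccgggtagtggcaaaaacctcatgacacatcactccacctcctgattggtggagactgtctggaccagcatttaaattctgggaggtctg

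The matches do not overlap each other. A second Spp1 window of the same table, at a start site further into the gene, held 1 Ets match and no Runx match. Of 32851 promoter windows of the same length, 14.0% held the Runx letters and 29.5% the Ets letters. The AP-1 letters TGANTCA, in 6.75% of windows, and the T-box letters GGTGTGA, in 3.33%, were not in this window. Promoters of 5 of the 6 genes were in the table, with Itgb3 not among them, and Itga4 was the other gene with a Runx match. Ets matches were not particular to Spp1, with 3 in the window of Cd44, 2 in that of Itgb1 and 1 in that of Itgav. Itga4 had no Ets match and 1 T-box match. A match is a run of letters and no shown binding site.

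Among the genes whose pattern over the 6 libraries was most like that of Spp1, by Pearson's r of log2(CPM + 1), were B4galnt4 (0.9864), Sostdc1 (0.9828), Shtn1 (0.9826) and Gnaq (0.9817). These 4 shared its low old replicate 3: B4galnt4, a glycosyltransferase, stood at 28.9, 27.1 and 14.6 CPM in old replicates 1, 2 and 3, against 5.75, 7.34 and 6.33 CPM in young replicates 1, 2 and 3. Most like Cd44 were Pdzk1ip1 (0.9995), Il1rn (0.9955), Spsb1 (0.9945), Slc13a3 (0.9943) and Ptger2 (0.9932). Ptger2, a prostaglandin E receptor, stood at 81.0, 85.9 and 86.1 CPM in old replicates 1, 2 and 3, against 31.7, 40.9 and 33.2 CPM in young replicates 1, 2 and 3. Both orders rest on 6 points that fall into an old and a young cluster, so r describes no relation within a group. Without 1 library, between 2 and 4 of the 10 closest genes stayed among the closest.

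Markers of other cells are given beside these values, and their part in them was not tested. Neutrophil markers summed to 5.19 to 38.3 FPKM in old and 41.7 to 93.0 FPKM in young libraries. Of the 8, 4 lay under 1 FPKM in every library, among them Ly6g, Mpo and Elane. S100a9 was the highest, at 8.25 ± 7.52 FPKM in old and 30.03 ± 12.8 FPKM in young libraries (SD over 3 libraries). S100a8, Camp and Ngp averaged 5.11, 1.78 and 4.01 FPKM in old, against 18.5, 7.97 and 18.6 FPKM in young libraries. All 4 tested genes were lower in old libraries at an unadjusted p under 0.05 (edgeR), beside 10.6% of all genes. None was called by edgeR and 2 by DESeq2, beside 4.77% of all genes. Natural killer markers summed to 8.74 to 11.0 FPKM in old and 14.0 to 28.9 FPKM in young libraries, nearly all of it Eomes, which some T cells make, while Ncr1 and Klrb1c lay under 1 FPKM. CD8 markers summed to 7.28 to 9.69 FPKM in old and 10.9 to 18.2 FPKM in young libraries, most of it Cd8b1. Dendritic cell markers summed to 6.46 to 7.51 FPKM in old and 4.15 to 5.70 FPKM in young libraries, led by Zbtb46, with Clec9a and Siglech under 1 FPKM in every library. These 4 sums did not overlap between groups, whereas those of B cell markers (5.2 to 9.28 in old and 5.62 to 17.6 FPKM in young libraries, with Cd79a highest in the mean of all 6) and of erythroid markers (0.490 to 1.28 in old and 0.990 to 5.92 FPKM in young libraries, with Hba-a1 highest in the mean of all 6) did.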

How the data were processed

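Total RNA of the 6 samples went through Illumina sequencing, as the labels' protocols state. The authors deposited FPKM values and expected counts for 66712 RefSeq transcripts, per the file headers. Per the submitters' processing notes, the tools were Bowtie and RSEM and the build GRCm38 (mm10). Their versions, the annotation release and the strand setting were not given in the sources used here.

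FPKM and expected counts were summed per Entrez gene, and 19830 of 19977 gene numbers matched a symbol in RefSeq for GRCm38. Counts were rounded. Every pair of libraries differed by more than sampling noise, with a chi-square per degree of freedom of 23.03 or more. The test was edgeR 4.0.16 (quasi-likelihood, TMM, no replicate block, R 4.3.3) on genes whose FPKM averaged 1 or more, with calls below 0.05 after Benjamini-Hochberg adjustment. Standard errors are the log2 difference over the square root of F. CPM uses TMM-scaled totals. The method was also run on simulated counts with 200 changed genes, a common dispersion for all genes and no outlying library. That run therefore cannot show how the calls behave with a library like young replicate 1.

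Members and lists were chosen with earlier results of these data known. Named were the members, called list genes, the 2 highest genes per pathway list, the highest per marker list, transcripts with a mean FPKM of at least 1, the 5 most alike genes for Spp1 and for Cd44, and the genes beside Spp1; 1 of the genes most like Spp1 is not reported here. Genes picked after their values were seen are said to be so, or are given as a level in a list. Alternatives were other filters, RLE factors, DESeq2 1.42.0, limma 3.58.1, a replicate block, left-out libraries, count or curated shares and TPM.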

Additional observations from a re-analysis of the deposited data

How the results depend on the processing

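The number of genes called by edgeR, 92 with all libraries, was 203 with no filter, 55 at a mean FPKM of at least 5 and 501 in DESeq2, and between 0 and 929 with 1 library left out. It was 0 without old replicate 2 and without young replicate 2, although 688 and 1296 passed 0.05 unadjusted, and 929 without young replicate 1. Of the pathway genes, 5 were called with no filter, 0 at a mean FPKM of at least 5, 12 in DESeq2, and between 0 and 15 with 1 library left out. Deviations from the group means correlated at 0.23, -0.03 and 0.21 for libraries that share the replicate numbers 1, 2 and 3. For libraries of different numbers they correlated between -0.35 and 0.36. With 3 libraries per group, deviations from a group mean are tied to each other, so these values cannot decide whether the numbers pair the libraries. With a replicate block 119 genes and 2 pathway genes were called, and the calls of the 6 members did not change. The log2 difference of Spp1 was 2.45 in limma on log2(FPKM + 1), where the pseudocount lowers that of a gene near 1 FPKM, and between 3.28 and 4.04 with 1 library left out. That of Itga4 lay between -0.37 and 1.54, the last without young replicate 1. With 1 library left out, Cd44 kept to 1.28 to 1.62, Itgav to 0.74 to 1.05, Itgb1 to 0.87 to 1.15 and Itgb3 to -1.60 to -1.17. DESeq2 called 5 members, all but Itga4, while Itgb3 was not called at a mean FPKM of at least 5 or in limma, and Spp1 not in limma on log2(FPKM + 1). The 9-exon share of Cd44 stayed within the spread of libraries by counts (95.0% in old and 95.5% in young libraries) and over curated transcripts (98.1% in old and 97.1% in young libraries). On the FPKM scale, 6 of the 10 most alike genes were shared, and between 2 and 4 with 1 library left out. The order of levels was the same in TPM at all 12 places. Depth limits Spp1 most, at 20 to 23 counts in young libraries.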
